A study of Homo sapiens with 3 samples.

Results

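Histone H3 trimethylated at lysine 36 (H3K36me3) was mapped over 8 genes chosen as prostate secretory and cell-surface genes. They are FOLH1, ACPP, STEAP1, STEAP2, STEAP4, TRPM8, ABCC4 and MSMB, and each was taken as a fixed hg19 gene body given to the nearest kb, 576 kb in all. The cells were LNCaP, an established androgen-responsive prostate cancer line. The compared libraries were 1 from cells given 100 nM dihydrotestosterone (DHT, a strong natural androgen) for 4 h in medium described as red-free, and 1 from cells without treatment. Both come from the same line grown with serum, and since the untreated label names no red-free medium, hormone and change of medium cannot be told apart. An input library is also labelled and was not analysed here. Each list is the authors' own set of peaks, called separately in each library. The 8 gene bodies held 112 of the 131801 DHT peaks and 96 of the 117568 untreated peaks.

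H3K36me3 is laid down by SETD2, a methyltransferase that travels with elongating RNA polymerase II, so the mark lies over the bodies of transcribed genes. The products of some of these genes are used as prostate markers or drug targets. Several of the genes, among them FOLH1 and STEAP4, are known to respond to androgen. Peaks mark the places that passed a caller's cut-off and are no measure of how much of the mark is there, and in a bulk culture fewer marked cells and less of the mark per cell cannot be told apart.

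Of the 8 genes, 6 carried peaks in both libraries and 2, STEAP4 and MSMB, carried none in either. The share of 50 kb windows with at least 1 peak was 45.1% after DHT and 43.2% in untreated cells. Over the 8 genes the median covered share of the gene body was 7.25% after DHT and 5.98% in untreated cells, beside 1.72% and 1.66% over the 32306 windows of 50 kb with a peak of either library. Without the first and last 1 kb of each gene the medians were 5.92% after DHT and 6.57% in untreated cells, so the order of the libraries depends on the gene edges. Those windows also hold sequence outside genes, so this sets the genes beside the genome at large and not beside other gene bodies. ABCC4 and ACPP were the most covered after DHT, at 11.5% and 11.1%. FOLH1 and ACPP led in untreated cells, at 13.7% and 12.6%. TRPM8 was the least covered of the 6 genes with peaks in both libraries, at 2.28% and 1.39%.

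**Figure D1:**
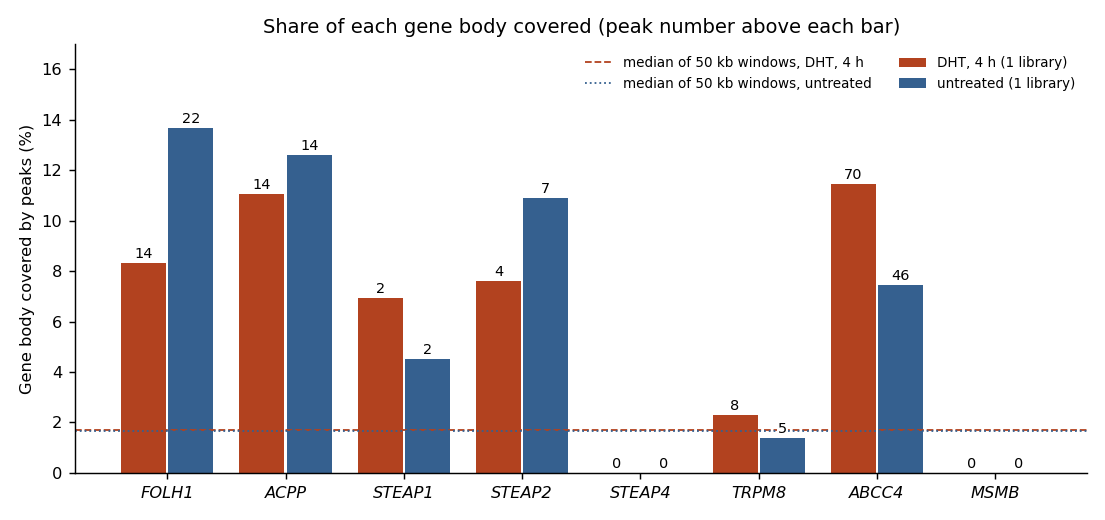
Percent of each gene body covered by H3K36me3 peaks (vertical axis) for the 8 genes, DHT left of untreated, with 1 library per bar and peak numbers above the bars. Dashed or dotted lines are at the median of 50 kb windows with a peak of either library. FOLH1, ACPP and STEAP2 stand lower after DHT, STEAP1, TRPM8 and ABCC4 stand higher, and STEAP4 and MSMB are at 0.

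The 2 libraries differed by 1.5-fold or more in covered length at 3 genes. TRPM8 and ABCC4 were more covered after DHT and FOLH1 less, among the 5 genes with 1 kb or more under peaks in at least 1 library. Of 16867 windows of 50 kb with as much covered, 19.9% were at least 1.5-fold higher after DHT, 18.6% at least 1.5-fold lower, and 38.5% either. The 3 of 5 genes come to 60% (95% exact binomial interval 14.7% to 94.7%), which spans that background, so the number of genes past 1.5-fold is not a result about this group. In the lists as deposited no gene reached 2-fold, which 19.3% of the windows did. With 1 library a condition there is no test across replicates, and the intervals below cover counting error only, treating peaks as independent.

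Summed over the 8 genes, covered length was 48101 bp after DHT and 40614 bp in untreated cells, a ratio of 1.18 (95% counting interval 0.870 to 1.61). The ratio over all nuclear chromosomes was 1.03. ABCC4 alone made up 67.1% of the covered length after DHT and 51.7% in untreated cells. Without it the other 7 genes had 15804 and 19612 bp, a ratio of 0.806 (0.508 to 1.28), so the direction of the sum rests on ABCC4. Of the 6 genes with peaks, the interval of the ratio included 1 in 5, all but ABCC4.

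**Figure D2:**
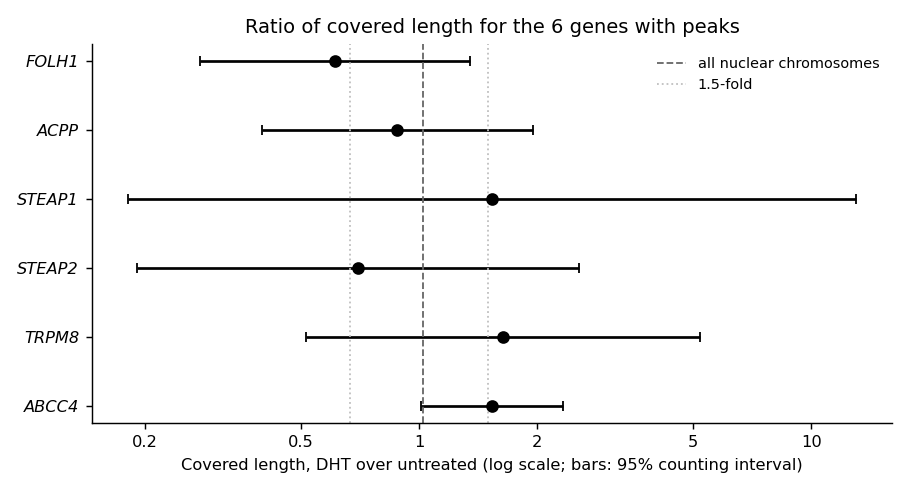
Covered length after DHT over that in untreated cells for the 6 genes with peaks, on a log axis, with 95% counting intervals as bars, a dashed line at the ratio over all nuclear chromosomes and dotted lines at 1.5-fold in either direction. The interval of ABCC4 lies above 1, and those of the other 5 genes include 1.

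FOLH1 encodes prostate-specific membrane antigen, a folate hydrolase and glutamate carboxypeptidase on the cell surface that is the target of prostate imaging agents. It had 14 peaks over 5169 bp after DHT and 22 peaks over 8486 bp in untreated cells, in a gene body on chromosome 11 from 49168001 to 49230000. The covered share was 8.34% after DHT and 13.7% in untreated cells, a covered length ratio of 0.609 (0.276 to 1.35). Of 10 equal parts from start to end, 9 were less covered after DHT and 1, the fifth from the start, was more covered. Split at its midpoint, the gene had 3023 bp on the start side after DHT and 4613 bp there in untreated cells, and 2146 and 3873 bp on the end side.

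An untreated peak overlapped 11 of the 14 DHT peaks (78.6%, 95% Wilson interval 52.4% to 92.4%), and a DHT peak overlapped 12 of the 22 untreated peaks (54.5%, 34.7% to 73.1%). Over all nuclear chromosomes the shares were 48.5% of DHT peaks, below the FOLH1 interval, and 52.3% of untreated peaks, inside it. Untreated peaks covered 13.7% of FOLH1 and 2.08% of the nuclear chromosomes, so the background is of more sparsely covered sequence. Such shares were also taken for the other genes with peaks, with no correction for their number, and no excess of overlap at FOLH1 is read from them. The 10 untreated peaks without a counterpart had a median score of 89.3, close to the 89.8 of the 12 with one. The widest peak was at the same place in both lists. It spanned 49184486 to 49185616 after DHT, with 1131 bp and a score of 151, and 49184216 to 49185687 in untreated cells, with 1472 bp and a score of 487. The highest DHT score in any of the 8 genes, 553, belonged to a narrow FOLH1 peak of 282 bp from 49172828 to 49173109, which overlapped an untreated peak of 302 bp with a score of 333. A score is the authors' value within its own list. Scores of the 2 libraries are given side by side throughout to describe each peak, and no difference between lists is read from them. By rank, the widest FOLH1 peak scored above 81.4% of the DHT list and above 99.5% of the untreated list. Both libraries had a peak over the first part of the gene, and 1 untreated peak ran across the start. The next peak before the start lay 1508 kb away after DHT and 1549 kb away in untreated cells. How well reads could be placed in that stretch was not tested. In the higher-scoring 50% of each list the FOLH1 ratio was 0.876 and the gene was no longer past 1.5-fold. FOLH1 has a close copy on the same chromosome, FOLH1B, and the sources used here do not say how reads were divided between them, so values of FOLH1 are uncertain to that extent. Among windows of the length of FOLH1 with 1 kb covered, 17.7% were at least 1.5-fold lower after DHT.

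ACPP encodes prostatic acid phosphatase, a phosphatase secreted into seminal fluid that was an early serum marker of prostate cancer. Its gene body lies on chromosome 3 from 132036001 to 132087000. It had 14 peaks in each library, over 5644 bp after DHT and 6421 bp in untreated cells (ratio 0.879, 0.397 to 1.95). The peak number was the same in both, and the covered share differed little, at 11.1% and 12.6%. The peaks were placed differently along the gene. Before its midpoint the gene had 1799 bp after DHT and 3547 bp in untreated cells (ratio 0.507, 0.149 to 1.73). Beyond it there were 3845 bp after DHT and 2874 bp in untreated cells (ratio 1.34, 0.484 to 3.70). These intervals overlap widely, so the difference in placement is within counting error.

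The highest-scoring ACPP peak was the last one in the gene in both lists. It ran from 132086599 to 132086906 after DHT, with a score of 284, and from 132086560 to 132086991 in untreated cells, with a score of 397. Each stood high in its list, above 95.7% of all DHT peaks and 98.95% of all untreated peaks. The widest ACPP peak had 724 bp after DHT, from 132082464 to 132083187, and 889 bp in untreated cells, from 132058129 to 132059017. No DHT peak lay in the first 6.71 kb and no untreated peak in the first 3.70 kb.

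MSMB encodes beta-microseminoprotein, a small protein that is among the most abundant secreted by the prostate. Its gene body, 13 kb on chromosome 10 from 51550001 to 51563000, had no peak in either library. Of 237881 windows of that length over the nuclear chromosomes, 68.3% had no peak in either, so an empty interval of this size is common. The sequence next to the gene was not empty. On the side of higher positions, 14 DHT peaks over 5029 bp and 11 untreated peaks over 4727 bp lay within 50 kb, beginning 7.59 kb from the gene after DHT and 4.60 kb from it in untreated cells. On the other side there were 1 DHT peak of 270 bp and 2 untreated peaks over 631 bp. In the RefSeq table NCOA4, known as a ferritin receptor of selective autophagy and a coactivator of the androgen receptor, is the closest gene on one side of MSMB. That table is of GRCh38.p14 and its positions were not used, so the neighbouring peaks were not assigned to a gene.

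**Figure D3:**
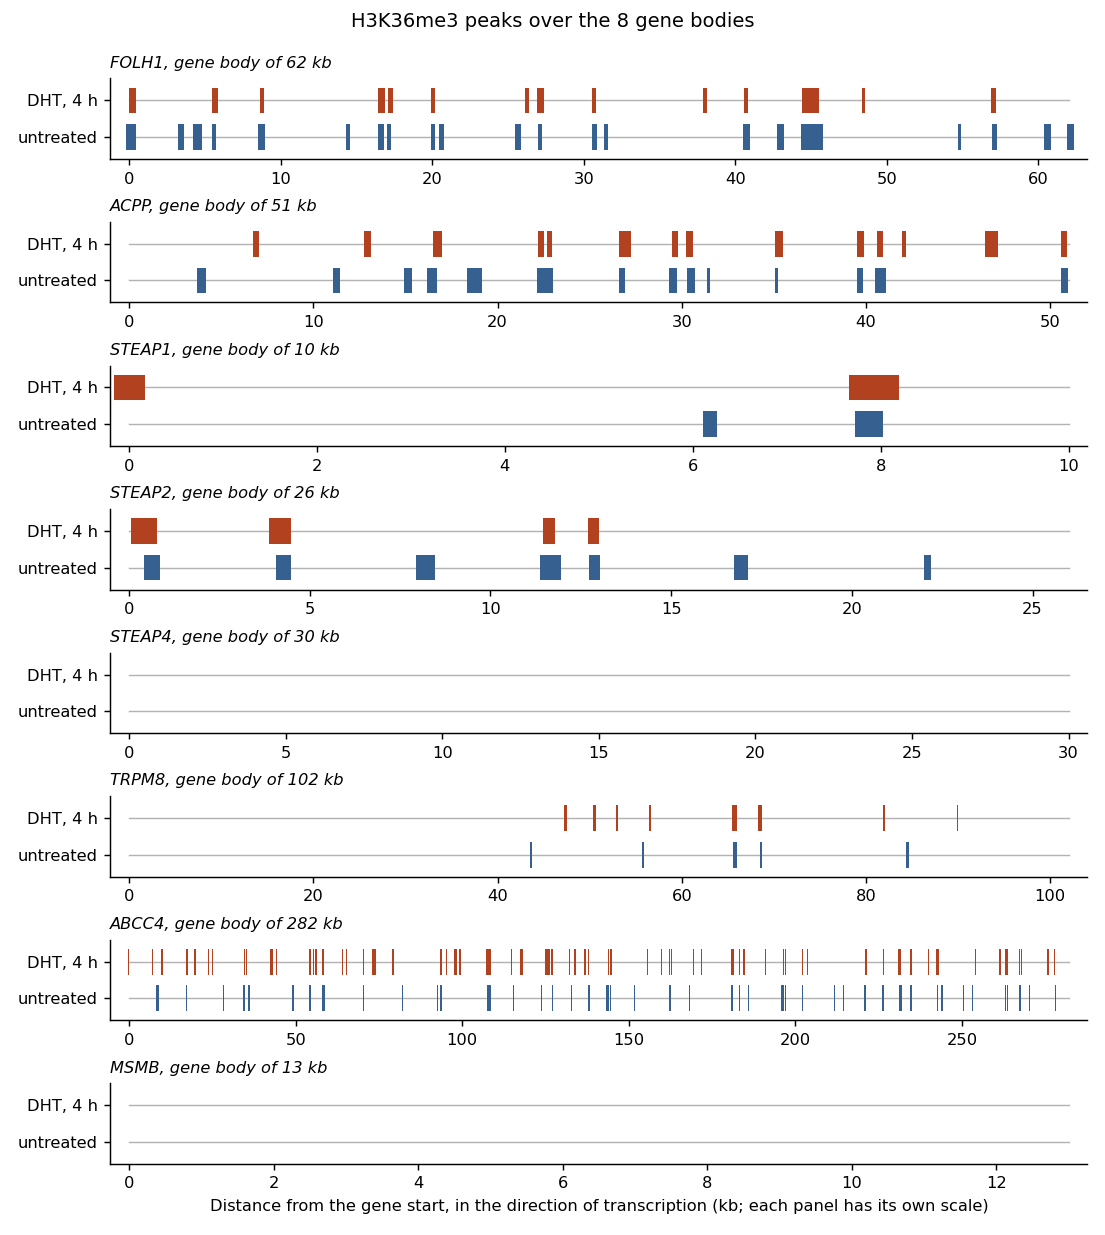
Peaks of the DHT library (upper row of each panel) and the untreated library (lower row) as blocks along the 8 gene bodies, by distance from the gene start in the direction of transcription, in kb on a scale of its own for each gene. STEAP4 and MSMB are empty, TRPM8 is empty up to 47.3 kb after DHT and 43.5 kb in untreated cells, and ABCC4 has peaks along its whole length.

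The STEAP genes encode metalloreductases with 6 membrane-spanning segments, of which STEAP2 and STEAP4 reduce iron and copper, and STEAP1 lacks the domain that binds NADPH. All 3 members lie on chromosome 7, and they differed in coverage. STEAP1, a cell-surface antigen targeted in prostate cancer trials, spans 10 kb from 89784001 to 89794000. It had 2 peaks in each library, over 692 bp after DHT and 451 bp in untreated cells, a covered share of 6.92% and 4.51%. One peak was common to both. It covered 527 bp from 89791665 to 89792191 after DHT and 299 bp from 89791726 to 89792024 in untreated cells. The other DHT peak lay across the gene start, from 89783844 to 89784165, where the untreated list had none, and the other untreated peak, of 152 bp, lay 6.10 kb into the gene. The ratio of 1.53 (0.181 to 13.0) rests on these few peaks. The antisense transcript STEAP2-AS1 overlaps STEAP1 in the RefSeq table, and the assay does not tell strands apart.

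STEAP2 had 4 peaks over 1973 bp after DHT and 7 peaks over 2833 bp in untreated cells, in a gene body from 89841001 to 89867000 (ratio 0.696, 0.190 to 2.55). Of its peaks, 4 of 4 in the DHT list (100%, 95% Wilson interval 51.0% to 100%) and 4 of 7 in the untreated list (57.1%, 25.0% to 84.2%) had a counterpart in the other, beside 48.5% and 52.3% over all nuclear chromosomes. The other 3 untreated peaks lay 7.94, 16.7 and 22.0 kb from the start. Beyond the midpoint of the gene, peaks covered 1 bp after DHT and 623 bp in untreated cells. That 1 bp is the edge of a DHT peak of 304 bp that ends just past the midpoint. Its untreated counterpart of 316 bp lay at the same place and reached 43 bp past the midpoint. A ratio of the end sides would thus hang on where the midpoint falls and is not given. The first peak of each list was close to the start, from 89841066 to 89841779 with a score of 220 after DHT and from 89841419 to 89841855 with a score of 115 in untreated cells. The highest-scoring STEAP2 peak was also common to both, with 326 bp and a score of 322 after DHT and 574 bp and a score of 197 in untreated cells. The 47 kb between STEAP1 and STEAP2 held 7 DHT peaks over 3085 bp and 10 untreated peaks over 3401 bp, 6.56% and 7.24% of its length, beside 6.92% and 4.51% of STEAP1 and 7.59% and 10.9% of STEAP2. In the RefSeq table STEAP2-AS1 is also the closest gene to STEAP2 on the side of lower positions. The stretch may therefore hold part of that transcript and is not taken as free of genes.

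STEAP4, known in fat and inflamed tissue as well as in prostate, had no peak over its 30 kb from 87906001 to 87936000. Of windows of that length, 56.2% had no peak in either library. Within 50 kb on the side of lower positions there was 1 peak of 319 bp after DHT and 1 of 281 bp in untreated cells. On the other side there was no DHT peak and 1 untreated peak of 308 bp. The gene thus lay in a sparsely marked stretch, unlike MSMB.

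TRPM8 encodes the cold- and menthol-gated cation channel of sensory neurons, which is also made in prostate epithelium. It had 8 peaks over 2326 bp after DHT and 5 peaks over 1421 bp in untreated cells, in 102 kb on chromosome 2 from 234826001 to 234928000 (ratio 1.64, 0.515 to 5.21). The first part of the gene had no peak in either library. The first peak began 47.3 kb from the start after DHT and 43.5 kb from it in untreated cells, and the last ended at 90.0 kb and 84.7 kb. The lists had 2 places in common. An untreated peak overlapped 2 of the 8 DHT peaks (25%, Wilson interval 7.15% to 59.1%). A DHT peak overlapped 2 of the 5 untreated peaks (40%, 11.8% to 76.9%). The shares over all nuclear chromosomes, 48.5% and 52.3%, lie inside these intervals, so less overlap at TRPM8 than elsewhere is not shown. At 65.5 kb from the start the DHT peak had 530 bp and a score of 174, and its untreated counterpart 361 bp and a score of 67.0. At 68.3 kb the DHT peak had 332 bp and a score of 217, and its counterpart 221 bp and a score of 57.9. In the untreated list 4 of the 5 TRPM8 peaks scored under the list median. The other, of 264 bp at 43.5 kb from the start, had the highest untreated score of the gene, 140. In the higher-scoring 50% of each list the TRPM8 ratio was 5.16, against 1.64 in the full lists, but it rests on 1 untreated peak of 264 bp. Among windows of the length of TRPM8 with 1 kb covered, 18.4% were at least 1.5-fold higher after DHT.

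ABCC4 encodes MRP4, a transporter that exports cyclic nucleotides, prostaglandins and steroid conjugates, and its transcript is known to be induced by androgen in prostate cells. It is the longest of the 8 genes, 282 kb on chromosome 13 from 95672001 to 95954000. It had 70 peaks over 32297 bp after DHT and 46 peaks over 21002 bp in untreated cells. The covered share was 11.5% after DHT and 7.45% in untreated cells, a covered length ratio of 1.54 (1.01 to 2.33). Peak number gave a like difference: 60.3% of the ABCC4 peaks of both lists were DHT peaks (95% exact interval 50.8% to 69.3%), where DHT peaks were 52.9% of all peaks. Both intervals include the value over all nuclear chromosomes. Among windows of the length of ABCC4 with 1 kb covered, 14.2% were at least 1.5-fold higher after DHT. Set among all windows of its own length, ABCC4 stood above 97.2% of them after DHT and above 92.2% in untreated cells.

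The difference at ABCC4 lay mostly on the start side of its midpoint. That side had 34 peaks over 18738 bp after DHT and 18 peaks over 9112 bp in untreated cells (ratio 2.06, 1.07 to 3.94). The end side had 36 peaks over 13559 bp and 28 peaks over 11890 bp (ratio 1.14, 0.671 to 1.94). The intervals of both sides overlap, and the sides were compared after the values along the gene had been seen. Of 10 equal parts along the gene, 8 were more covered after DHT. The fifth part from the start differed most, with 5241 bp after DHT and 1895 bp in untreated cells, and the ninth part went the other way, with 2770 and 3886 bp. A DHT peak of 564 bp from 95953896 to 95954459 lay across the gene start, with a score of 52.8 near the floor of the list, and the first untreated peak began 8.22 kb into the gene.

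An untreated peak overlapped 27 of the 70 DHT peaks (38.6%, 28.0% to 50.3%), and a DHT peak overlapped 26 of the 46 untreated ones (56.5%, 42.2% to 69.8%). Both intervals include the shares over all nuclear chromosomes, 48.5% and 52.3%. The 43 DHT peaks without a counterpart had a median score of 86.2, against 104 for those with one and 85.7 for the whole list. The highest-scoring ABCC4 peak was at the same place in both libraries. It had 1402 bp from 95845376 to 95846777 and a score of 495 after DHT, and 1332 bp from 95845392 to 95846723 and a score of 223 in untreated cells. The widest DHT peak, 1577 bp from 95827583 to 95829159, had no untreated counterpart and a score of 53.4, above only 6.74% of the list.

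**Figure D4:**
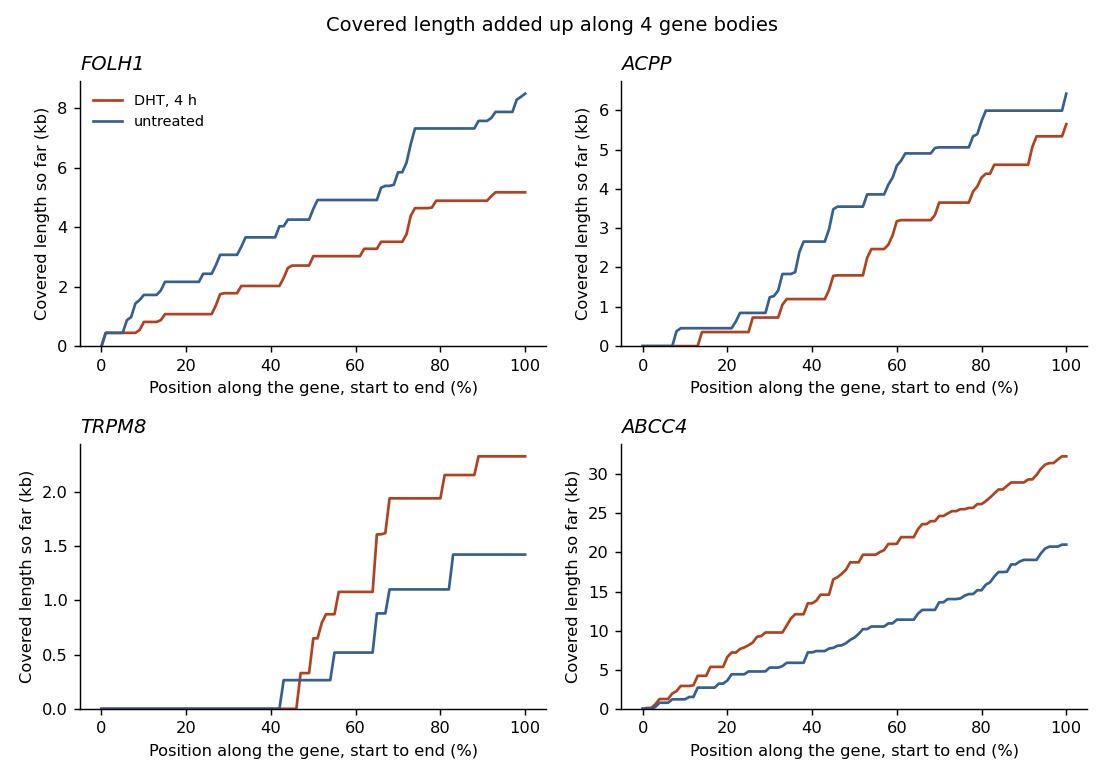
Covered length added up along FOLH1, ACPP, TRPM8 and ABCC4 from gene start to gene end (horizontal axis in percent of the gene, vertical axis in kb), with 1 line per library. The DHT line of ABCC4 ends at 32297 bp and the untreated one at 21002 bp, and most of the gap opens before the midpoint of the gene, while the DHT line of FOLH1 runs below the untreated one to end at 5169 and 8486 bp.

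ABCC4 lay far from other peaks, at its end in both libraries and at its start in untreated cells. The nearest peak beyond its end was 389 kb away after DHT and 388 kb away in untreated cells. Before its start, the nearest was 2.50 kb away after DHT and 370 kb away in untreated cells. Of the 6 genes with peaks, 5 were more covered than both flanks of their own length in each library, all but TRPM8. STEAP2 was so after DHT only narrowly, at 7.59% against 7.57% in the flank beyond its end. Which genes stood out depended on the flank. With flanks of 20 kb they numbered 4 after DHT, all but STEAP1 and STEAP2, and 5 in untreated cells, all but STEAP1. TRPM8 was then among them in both libraries. The share of 50 kb windows with a peak that were more covered than both neighbouring windows was 42% after DHT and 43.1% in untreated cells. FOLH1 was covered at 8.34% after DHT and 13.7% in untreated cells, and its flank before the start at 0% and 0.310%. TRPM8 was covered at 2.28% after DHT and 1.39% in untreated cells, and its flank of 102 kb before the start at 4.18% and 2.50%. The peaks of that flank were not next to the gene. The nearest lay 50.5 kb before the start after DHT and 50.2 kb before it in untreated cells.

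The 6 genes with peaks had no common bias towards one end. In each library 3 were more covered beyond their midpoint and 3 before it. In 50 kb windows with a peak, the part at higher positions was the more covered in 49.7% after DHT and 50.3% in untreated cells. STEAP1 and TRPM8 were more covered beyond the midpoint in both libraries, and FOLH1 and STEAP2 before it in both. At ACPP and ABCC4 the more covered side was not the same in both libraries. ACPP was more covered near the end after DHT and near the start in untreated cells, and ABCC4 the reverse. At ACPP and at ABCC4 the ratio intervals of the sides overlap, so no shift along either gene is shown.

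Peaks over these genes were of ordinary width and scored somewhat higher than the list after DHT. Their median width was 376 bp after DHT and 391 bp in untreated cells, against 354 and 374 bp in the lists, and peaks of 1000 bp or more numbered 4 and 3. The median score was 101 over the genes and 85.7 over the list after DHT, and 80.9 over the genes and 81.2 over the list in untreated cells. Of the gene peaks, 67 of 112 after DHT and 48 of 96 in untreated cells were above their list median. Peaks of the 8 genes overlapped between libraries about as often as elsewhere, 49.1% of DHT peaks (40.0% to 58.2%) and 56.3% of untreated peaks (46.3% to 65.7%), beside 48.5% and 52.3% over all nuclear chromosomes.

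**Figure D5:**
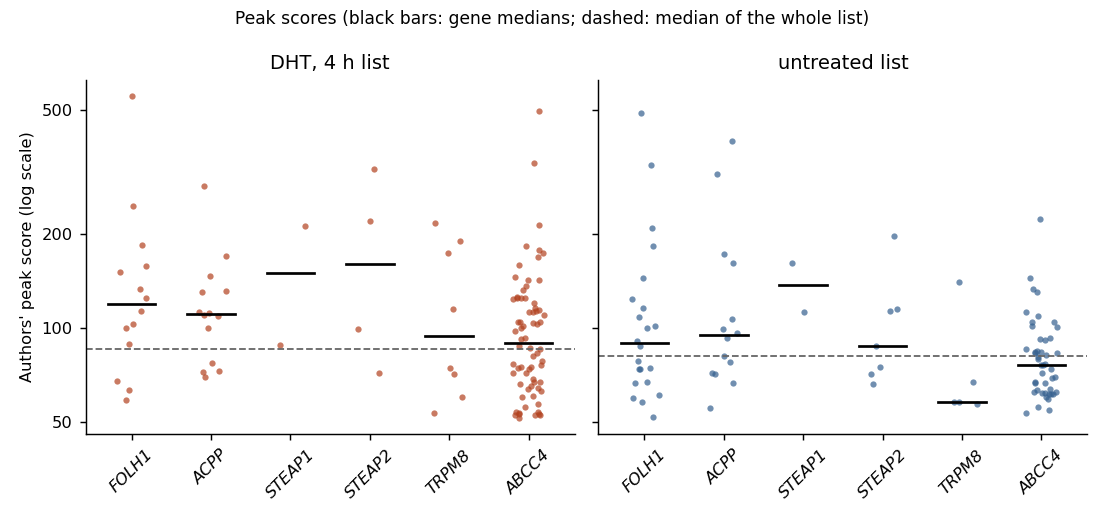
The authors' peak scores on a log axis for the 6 genes with peaks, each point 1 peak, with the DHT list on the left, the untreated list on the right, black bars at the gene medians and a dashed line at the median of the whole list. In the DHT list all 6 gene medians lie above the list median, and in the untreated list those of TRPM8 and ABCC4 lie below it.

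The genes also differ in the sequence before their starts, which the choice of members did not use. RefSeq start sites were at hand for 6 of the 8 genes, all but FOLH1 and MSMB. There were 6 starts for TRPM8, 2 for STEAP2 and 1 for each of the others. Only the most upstream was used, and distances of peaks are from the edge of the gene body, so nothing is said of the other starts. The 250 bases before the most upstream start are shown for 4 of them that differ in how peaks lay at the start: STEAP2, with a peak near it in both libraries, ABCC4, with one across it after DHT only, and TRPM8 and STEAP4, with none in either. Positions are of GRCh38.p14 and cannot be set against the hg19 peaks, and the STEAP4 start of RefSeq need not be the edge of the gene body used here. Sequences run 5′ to 3′ on the gene's strand, and capitals mark a GC box (GGGCGG or CCGCCC) or a TATA box (TATAAA or TTTATA).
ABCC4, chr13:95301452-95301701, minus strand: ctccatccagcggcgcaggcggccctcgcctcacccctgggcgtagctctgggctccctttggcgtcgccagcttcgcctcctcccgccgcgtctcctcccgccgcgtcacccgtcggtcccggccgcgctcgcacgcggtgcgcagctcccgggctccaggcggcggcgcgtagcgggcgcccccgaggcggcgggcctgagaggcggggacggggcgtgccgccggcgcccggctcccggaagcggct
STEAP2, chr7:90211490-90211739, plus strand: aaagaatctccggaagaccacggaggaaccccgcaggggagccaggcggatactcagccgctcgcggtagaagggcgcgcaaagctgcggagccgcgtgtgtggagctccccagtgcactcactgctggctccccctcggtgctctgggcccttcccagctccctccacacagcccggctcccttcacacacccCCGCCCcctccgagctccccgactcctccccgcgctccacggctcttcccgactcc
TRPM8, chr2:233917123-233917372, plus strand: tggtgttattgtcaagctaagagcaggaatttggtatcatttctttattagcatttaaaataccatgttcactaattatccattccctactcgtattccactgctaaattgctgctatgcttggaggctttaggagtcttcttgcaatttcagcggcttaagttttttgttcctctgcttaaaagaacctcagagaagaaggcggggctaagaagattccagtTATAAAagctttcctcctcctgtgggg
STEAP4, chr7:88306895-88307144, minus strand: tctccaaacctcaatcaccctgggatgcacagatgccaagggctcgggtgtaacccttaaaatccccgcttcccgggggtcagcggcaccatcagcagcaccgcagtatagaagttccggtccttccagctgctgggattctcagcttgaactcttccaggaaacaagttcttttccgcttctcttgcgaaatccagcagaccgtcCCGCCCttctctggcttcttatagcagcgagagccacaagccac

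The ABCC4 sequence held 42 CpG pairs, more than 98.6% of the 35116 promoters of the table, whose median was 11. STEAP1 and STEAP2 had 21 each and STEAP4 had 11. TRPM8 and ACPP had 3 and 2 and were thus CpG-poor. The GC content was 80.4% for ABCC4, 69.6% for STEAP2, 64.4% for STEAP1, 55.6% for STEAP4, 42% for ACPP and 40% for TRPM8, beside a median of 58%. A GC box by these letters was in STEAP2 and STEAP4 and in 42.6% of all promoters, and a TATA box was in TRPM8 and in 10.7% of all. The core hexamer of the androgen response element (AGAACA or TGTTCT) was in none of the 6 and in 12.4% of all, which says only that these letters are not in this window. The CpG-poor pair, ACPP and TRPM8, was also the pair whose first peak lay several kb into the gene in both libraries, but so did those of STEAP1 and ABCC4 in untreated cells. This is a description of few genes, with no test.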

How the data were processed

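ChIP-seq of H3K36me3 was analysed from the peak lists the authors deposited, 1 per library. The authors' caller was MACS, going by how the deposited peaks are named, and positions are in hg19, which the file names give. The sources used here do not give its version, settings or control, the aligner or the read numbers, so depth is unknown. The score of each peak is the authors' deposited value, from 50 to 3100, with no stated scale. The lists differ in length, and calling short peaks over a broad mark can break 1 domain into several.

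Covered length was computed with NumPy 2.4.6 under Python 3.11.15 on nuclear chromosomes and equalled that of bedtools 2.31.1 at 16 of 16 gene and library values. Gene bodies came with the choice of genes, to 1 kb. Strands were taken from general knowledge, since no hg19 annotation was at hand. The members and lists were chosen with earlier results of these data known. All 8 genes are named, with the widest and highest-scoring peaks of those that had peaks. A gene was compared at 1.5-fold if at least 1 kb was covered in either library. The background was all windows of 50 kb, or of a gene's own length, up to the last peak of each chromosome. Overlap meant at least 1 bp. Ratio intervals take the sum of squared peak widths as the variance of a covered length, on the log scale. Shares carry Wilson or exact binomial intervals, from SciPy 1.17.1. The functions were tested on simulated peaks. Alternatives were the higher-scoring 50% of each list, equal covered length, joining at 1 kb and 5 kb, other gene edges, folds, minimum lengths, overlap and flanks.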

Additional observations from a re-analysis of the deposited data

How the results depend on the processing

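The higher-scoring 50% of each list lowered the median covered share in untreated cells to 3.95% and the shares of peaks overlapped to 31.3% of DHT and 41.7% of untreated peaks, and left no gene at 1.5-fold lower after DHT (0). That list is shorter by construction. Joining peaks at 5 kb gave medians of 18.0% after DHT and 23.2% in untreated cells, overlapped shares of 76.3% and 77.8%, and 3 genes at least 1.5-fold lower (FOLH1, STEAP1 and STEAP2). It also turned the ratio of ACPP to 1.08 and that of STEAP1 to 0.360, and moved that of STEAP2 to 0.232 and that of TRPM8 to 3.31, the cause of which was not tested. Gene bodies without the first and last 1 kb had 2 genes lower (FOLH1 and STEAP2) and medians of 5.92% after DHT and 6.57% in untreated cells, so which library has the higher median depends on the gene edges as well as on joining. Bodies widened by 5 kb had 5 genes more covered near the end in untreated cells. At 2-fold, 0 genes were higher and 0 lower in the lists as deposited. Without ABCC4, a choice made after seeing the data, the summed ratio turned to 0.806. TRPM8 and ABCC4 were at least 1.5-fold higher in each list and gene-edge setting run, with ratios of 1.64 to 5.16 (the highest over 1 untreated peak) and 1.52 to 1.89, and FOLH1 ran from 0.537 to 0.876. Windows of 10 and 100 kb put 51% and 34.4% past 1.5-fold in either direction. No paired analysis was possible because each condition has 1 library.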
